A study of Mus musculus with 16 samples.

Results

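The 8 genes described here encode EGF family ligands (Ereg, Hbegf, Tgfa, Btc and Epgn) and ErbB receptors (Egfr, Erbb2 and Erbb3) linked to the re-epithelialization of wounds. They were taken as all probe sets whose only gene symbol in the platform annotation is 1 of these 8, which gave 19 of 34945 probe sets with 1 symbol, 9 for ligands and 10 for receptors. Egfr had 7 probe sets, Tgfa 3, Hbegf, Btc and Erbb3 2 each, and Ereg, Epgn and Erbb2 1 each. The tissue was dorsal incisional wound from wildtype C57BL/6 mice, labelled female and used as a model of hypertrophic scarring, and total RNA of the whole tissue was hybridised to 16 Affymetrix arrays. The 4 groups were stressed wounds of day 14 after 10 days of mechanical loading, unstressed wounds of day 14, stressed wounds of day 6 after 48 hours of loading, and unstressed wounds of day 6. Each group held 4 arrays, from 4 mice according to the series' design. Whole tissue was measured, so a lower value of a transcript can come from fewer cells of a type or from less RNA per cell, and these cannot be told apart.

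EGF family ligands are made as membrane-bound precursors that metalloproteases of the ADAM family cut free. Ereg (epiregulin), Hbegf (heparin-binding EGF-like growth factor), Tgfa (transforming growth factor alpha), Btc (betacellulin) and Epgn (epigen) all bind the receptor encoded by Egfr, and several of them also bind ErbB4. Erbb2 has no known ligand of its own and pairs with the other receptors, while Erbb3 binds neuregulins and has little kinase activity of its own. In skin this system is known for driving keratinocyte migration and proliferation when a wound closes, and its signal runs through RAS and the ERK kinases to early response genes.

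Promoter sequences were available for 5 of the 8 genes (Tgfa, Btc, Epgn, Egfr and Erbb2) in RefSeq tables of the mouse build GRCm38.p6. Each had 300 bases, from 250 before to 50 after the start used there. For Tgfa this start is not the gene start listed in RefSeq, 86195038, which lies within the 300 bases. The 3 shown here are those of Tgfa, Egfr and Btc, because probe sets of these genes passed the test between the days in unstressed wounds, with Tgfa and Egfr higher and Btc lower at day 14. The Tgfa promoter lies on the plus strand at chr6:86194972-86195271, the Egfr promoter on the plus strand at chr11:16751953-16752252 and the Btc promoter on the minus strand at chr5:91402945-91403244. Capitals mark GGGCGG, the core of SP1 sites, on either strand.
Tgfa: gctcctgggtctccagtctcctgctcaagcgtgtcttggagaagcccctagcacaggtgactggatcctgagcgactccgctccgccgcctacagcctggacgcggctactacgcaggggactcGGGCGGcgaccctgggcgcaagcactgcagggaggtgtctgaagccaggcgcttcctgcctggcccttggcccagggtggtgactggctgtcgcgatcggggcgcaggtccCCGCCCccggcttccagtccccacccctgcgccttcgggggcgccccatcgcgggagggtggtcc
Egfr: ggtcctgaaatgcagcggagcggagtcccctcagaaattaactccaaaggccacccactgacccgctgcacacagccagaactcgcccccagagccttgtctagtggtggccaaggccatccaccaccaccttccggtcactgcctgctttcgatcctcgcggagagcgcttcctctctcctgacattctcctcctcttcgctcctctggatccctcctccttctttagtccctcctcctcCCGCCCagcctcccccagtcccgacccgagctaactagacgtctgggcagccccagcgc
Btc: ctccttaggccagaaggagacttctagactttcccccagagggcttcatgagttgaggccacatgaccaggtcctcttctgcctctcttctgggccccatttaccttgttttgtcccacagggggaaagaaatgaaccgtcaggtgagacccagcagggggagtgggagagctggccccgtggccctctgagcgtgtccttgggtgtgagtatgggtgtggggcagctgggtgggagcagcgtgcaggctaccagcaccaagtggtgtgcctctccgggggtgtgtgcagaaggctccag
The Tgfa promoter held GGGCGG at 2 positions (-126 and -15 from the start used), both after the listed gene start of Tgfa. The Egfr promoter held it at 1 (-9), while the Btc promoter held none. Among all 32851 promoters of the table, 35.7% held this motif. The AP-1 motif TGANTCA, present in 7.81% of promoters, was found in none of the 5, and TATAAA, present in 13.6%, only in that of Epgn. GC content was 70.7% for Tgfa, 62.3% for Egfr and 60.3% for Btc, against a median of 52.7% over the table. A match to these letters is a description of the sequence and not evidence of a bound site.

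Values are log signals centred per probe set before deposit, read as log2. A value of 0 is therefore no level, signals of different probe sets cannot be set against each other, and neither detection nor the presence of a cell type could be judged. The log base is not given in the sources used here, and with natural logs every log2 difference would be larger than printed. The arrays fell into classes that go against the label female: Xist lay at 5.98 to 6.30 in replicates 3 and 4 of both day 14 groups, and at -0.53 to 0.81 in the other 12 arrays. The Y-linked gene Eif2s3y lay at -5.70 to -5.57 in the 4 arrays with high Xist and at -1.54 to 0.89 in the other 12. The classes are balanced over loading at day 14, but every day 6 array belongs to the low class, so class and day partly coincide. Loading differences within each class are given beside those they move most. The number of arrays limits the precision, and the comparisons below share groups with each other, so their results are not independent.

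The 4 comparisons were made with limma over all 34945 probe sets, with Benjamini-Hochberg adjusted p-values and a threshold of 0.05, and the loading effect at day 14 was also set against that at day 6. In stressed wounds of day 14 against unstressed wounds, Ereg and 1 Egfr probe set fell, and no member rose. That is 2 of 19 probe sets lower and 0 higher, where 4.04% of all probe sets were lower and 3.31% were higher. The members had a median difference of -0.16, with 12 of 19 below 0, and 5 had an unadjusted p under 0.05. At day 6, 0 of 19 members passed in limma, where 0.0258% of all probe sets did, and 3 members had an unadjusted p under 0.05. The change in loading effect between the days also passed for 0 of 19, where 0.00858% of all probe sets passed, again with 3 members under an unadjusted p of 0.05.

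Time gave more calls. In stressed wounds of day 14 against day 6, 5 members rose and 4 fell, which is 26.3% and 21.1% of 19, where 18.7% of all probe sets rose and 26.6% fell. This comparison also spans 48 hours against 10 days of loading. In unstressed wounds 4 rose and 4 fell, 21.1% each way, where 16.8% of all probe sets rose and 23.4% fell. In both time comparisons the members were near the share called over all probe sets, so the results are about single genes.

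**Figure D1:**
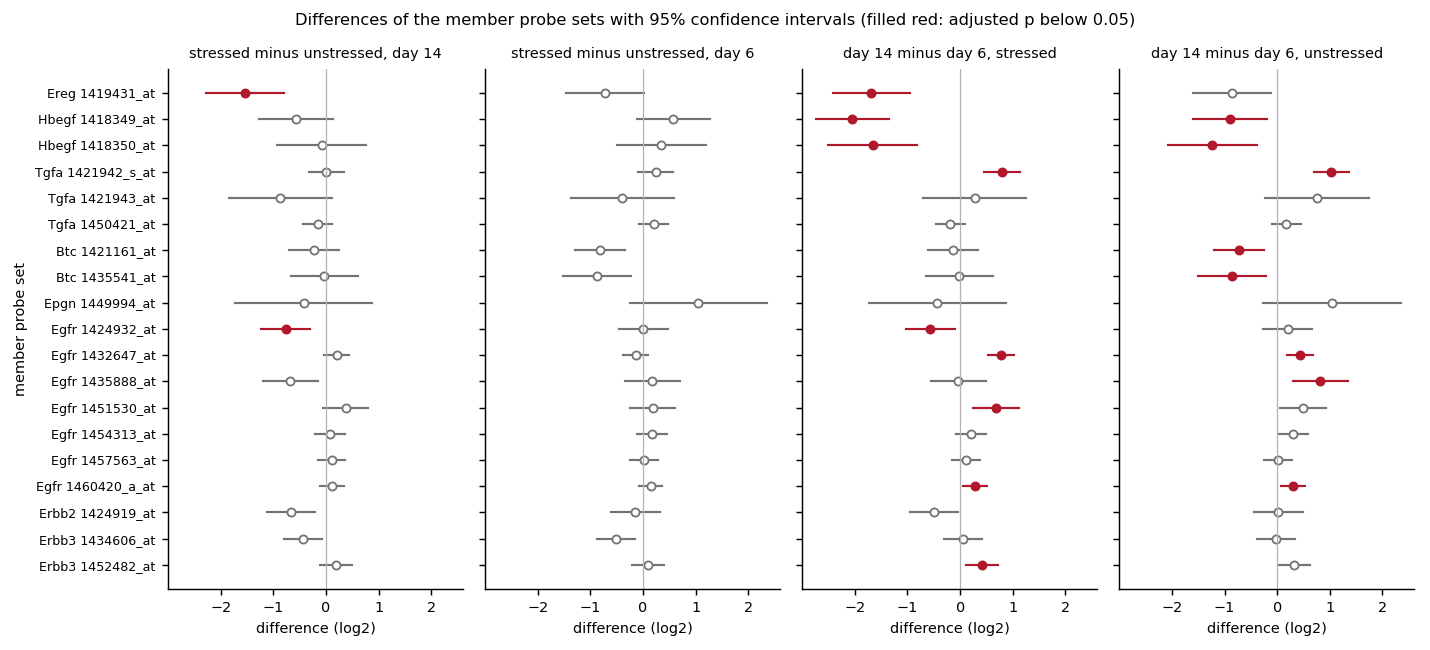
Difference on the log2 scale (x axis) of each of the 19 member probe sets (y axis) in 4 comparisons, with 95% confidence intervals from limma; filled red points passed an adjusted p of 0.05. Ereg lies at -1.54 and Egfr 1424932_at at -0.77 for loading at day 14, none is filled for loading at day 6, and Hbegf lies below 0 and Tgfa 1421942_s_at above 0 in both time comparisons.

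Ereg showed the largest loading difference among the members at day 14. Its single probe set 1419431_at had values of -1.03, -2.26, -1.11 and -2.10 in stressed wounds of day 14, against 0.52, -0.04, -0.85 and 0.04 in unstressed wounds of day 14. Every stressed array lay below every unstressed one. The means were -1.63 ± 0.64 in stressed and -0.08 ± 0.57 in unstressed wounds (SD, n = 4 each), a difference of -1.54 (SE 0.35, limma adjusted p = 0.0161), or 2.92-fold lower in stressed wounds if the base is 2. The difference was -1.88 within the low-Xist arrays and -1.20 within the high-Xist arrays, with 2 arrays a group in each. The call held under 22 of 27 alternatives. With only the low-Xist arrays of day 14 it held (adjusted p = 0.0133), and with only the high-Xist arrays it ended (adjusted p = 0.23). Leaving out stressed day 14 replicate 2 gave -1.33 and ended the call (adjusted p = 0.0626), as did quantile normalization (-1.18, adjusted p = 0.166) and fitting only the 8 arrays of day 14, without the Xist class (adjusted p = 0.1) or with it (adjusted p = 0.0612).

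At day 6 the Ereg values were 0.14, -0.23, 0.38 and -0.06 in stressed wounds, against 0.94, 0.57, 0.08 and 1.55 in unstressed wounds. The groups overlapped, and the difference of -0.72 (SE 0.35) did not pass (limma adjusted p = 0.889). The loading effects of Ereg at day 14 and day 6 differed by -0.82 (95% interval -1.87 to 0.23, limma adjusted p = 0.613), so a larger effect at day 14 was not shown. Over time Ereg fell in stressed wounds, with -1.63 ± 0.64 at day 14 and 0.06 ± 0.26 at day 6 (SD, n = 4 each), a difference of -1.68 (SE 0.35, limma adjusted p = 0.00141) with no overlap of the arrays. This call held under all 26 alternatives run. In unstressed wounds the difference was -0.86 (SE 0.35, limma adjusted p = 0.059), and the groups overlapped. It was called without unstressed day 14 replicate 1 (-1.07, adjusted p = 0.0314) or unstressed day 6 replicate 3 (-1.10, adjusted p = 0.0252).

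Epidermal marker lists differed in how closely they ran with Ereg. The mean of 9 basal keratinocyte markers such as Krt5 and Krt14 lay at -1.05 to -0.33 in stressed and -1.01 to -0.23 in unstressed wounds of day 14, and at -0.26 to -0.00 in stressed and 0.09 to 0.45 in unstressed wounds of day 6. Of these 9 genes, 3 fell and 0 rose over time in stressed wounds and 4 fell and 0 rose in unstressed wounds, where 33.3% of all genes fell in stressed and 30.5% in unstressed wounds. Between stressed and unstressed wounds of day 14 only Itgb4 among them passed (-0.81, limma adjusted p = 0.00814), and the median of the 9 was 0.01. Over the 16 arrays Ereg had r = 0.83 with the basal keratinocyte mean and r = 0.81 with the mean of 13 suprabasal markers, but r = 0.34 with that of 11 general epithelial markers, r = 0.10 with that of 9 wound-edge keratinocyte markers and r = -0.39 with that of 12 hair follicle and sebaceous gland markers. The wound-edge list had a median loading difference of 1.22 at day 14, opposite in sign to Ereg, with 7 of 9 above 0, and 0 of 9 passed in limma, though 6 had an unadjusted p under 0.05. Over time 0 of these 9 passed in limma in stressed wounds (1 with an unadjusted p under 0.05). Of all genes, 23.3% rose and 33.3% fell there. In unstressed wounds 1 of the 9 rose and 3 fell, where 21.9% of all genes rose and 30.5% fell. The points of these correlations share groups and libraries, and the part of these markers in the Ereg differences was not tested.

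**Figure D2:**
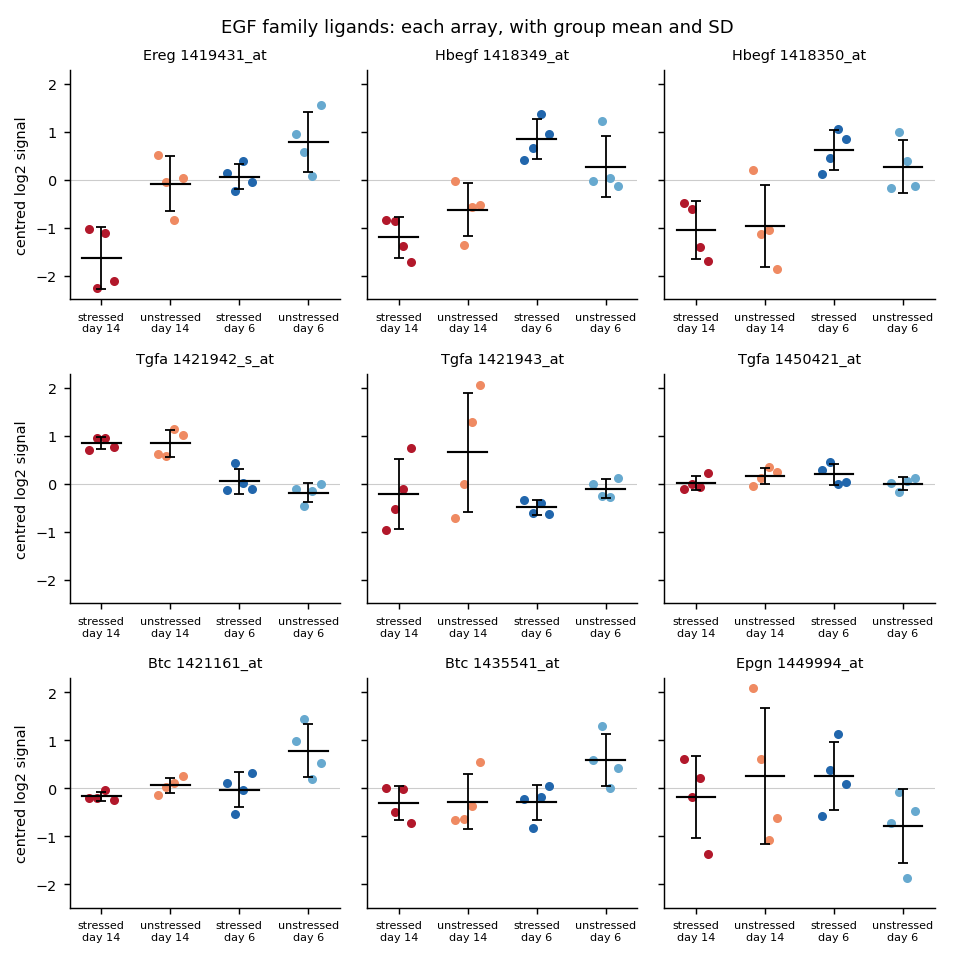
Centred log2 signal (y axis) of the 9 ligand probe sets in each array (points), by group (x axis), with the group mean (horizontal line) and SD (bars), n = 4 a group; 0 is no absolute level. The 4 stressed day 14 points of Ereg, at -2.26 to -1.03, lie below all its other points, and Tgfa 1421942_s_at separates day 14 from day 6 in both loading groups.

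Hbegf fell over time in both loading groups, and its pair of probe sets gave the same direction. In stressed wounds 1418349_at had values of -0.83, -0.86, -1.38 and -1.71 at day 14, against 0.41, 0.65, 1.36 and 0.96 at day 6. In unstressed wounds it had -0.04, -1.36, -0.57 and -0.52 at day 14, against -0.03, 1.22, 0.03 and -0.14 at day 6. The days did not overlap in stressed wounds and overlapped narrowly in unstressed wounds. The difference was -2.05 (SE 0.33, limma adjusted p = 0.000237) in stressed wounds, 4.13-fold lower at day 14 if the base is 2, and -0.89 (SE 0.33, limma adjusted p = 0.0411) in unstressed wounds.

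The second Hbegf probe set, 1418350_at, had -0.48, -0.61, -1.39 and -1.70 in stressed wounds of day 14, against 0.11, 0.44, 1.06 and 0.86 at day 6. In unstressed wounds it had 0.19, -1.14, -1.04 and -1.87 at day 14, against -0.17, 1.0, 0.39 and -0.14 at day 6. The differences were -1.66 (SE 0.40, limma adjusted p = 0.00359) and -1.23 (SE 0.40, limma adjusted p = 0.0221). The stressed calls of both probe sets held under every alternative run (25 and 26). The unstressed calls were lost more often: without unstressed day 6 replicate 2 the adjusted p was 0.146 for 1418349_at and 0.0774 for 1418350_at, and each was also lost without unstressed day 14 replicate 2 or replicate 4, and that of 1418349_at without unstressed day 14 replicate 3 or stressed day 6 replicate 4. With only the low-Xist arrays of day 14 the unstressed differences were -0.97 (adjusted p = 0.0875) and -0.74 (adjusted p = 0.162).

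Hbegf did not pass the test for loading at either day. The difference at day 14 was -0.58 for 1418349_at and -0.08 for 1418350_at, with limma adjusted p-values of 0.314 and 0.933. For 1418349_at it was -0.15 within the low-Xist and -1.0 within the high-Xist arrays. At day 6 it was 0.58 and 0.35, with the 4 stressed arrays of 1418349_at at 0.41 to 1.36 and the 4 unstressed arrays at -0.14 to 1.22. The loading effects of 1418349_at at day 14 and day 6 differed by -1.15 (95% interval -2.14 to -0.16, unadjusted p = 0.0251), which did not pass adjustment (limma adjusted p = 0.42). Macrophage markers, another cell type that can make Hbegf, also differed between the days: the mean of 11 such genes lay at -1.09 to 0.05 in stressed and -2.59 to -1.75 in unstressed wounds of day 14, and at 0.20 to 0.75 in stressed and -0.31 to 0.62 in unstressed wounds of day 6. Of the 11, 8 fell over time in stressed and 10 in unstressed wounds, where 33.3% and 30.5% of all genes fell. At day 14, 9 of the 11 were higher in stressed than in unstressed wounds, where 3.83% of all genes were higher. The part of the macrophage markers in the Hbegf results was not tested.

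Among the members' ligand probe sets, 1 of Tgfa was the only one that rose over time in either loading group with all arrays in the fit. This probe set, 1421942_s_at, had values of 0.71, 0.95, 0.96 and 0.77 in stressed wounds of day 14, against -0.12, 0.43, 0.01 and -0.10 at day 6. In unstressed wounds it had 0.62, 0.59, 1.14 and 1.02 at day 14, against -0.11, -0.46, -0.16 and -0.01 at day 6. Every day 14 array lay above every day 6 array in both loading groups. The differences were 0.79 (SE 0.16, limma adjusted p = 0.00108) in stressed and 1.03 (SE 0.16, limma adjusted p = 0.000187) in unstressed wounds, and both calls held under all 26 alternatives run. Loading gave differences of 0.01 at day 14 (95% interval -0.33 to 0.34) and 0.24 at day 6 (95% interval -0.10 to 0.57), neither past the test, and at day 14 it was 0.23 within the low-Xist and -0.21 within the high-Xist arrays.

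The other Tgfa probe sets did not share that pattern. Probe set 1421943_at had -0.96, -0.53, -0.11 and 0.75 in stressed and -0.71, 0.01, 1.28 and 2.05 in unstressed wounds of day 14, and replicates 3 and 4, the high-Xist arrays, were the highest of each group. At day 6 it lay at -0.63 to -0.34 in stressed and -0.27 to 0.13 in unstressed wounds, without overlap (difference -0.39, limma adjusted p = 1.0). High-Xist arrays exceeded low-Xist arrays by 1.06 in stressed and 2.02 in unstressed wounds of day 14. The loading difference was -0.87 (SE 0.46, limma adjusted p = 0.273). It was -0.39 within the low-Xist arrays (adjusted p = 0.287) and -1.35 within the high-Xist arrays, where it was called (adjusted p = 0.034). It was also called with the replicate number as a block (same difference, adjusted p = 0.0339), a block that also separates the Xist classes at day 14. The unstressed time difference of 0.76 (limma adjusted p = 0.203) was called without unstressed day 14 replicate 1 (1.21, adjusted p = 0.0287). Probe set 1450421_at ranged over -0.18 to 0.46 in all 16 arrays and passed in no comparison. The correlations between Tgfa probe sets over the 16 arrays were 0.26 to 0.46, against 0.90 for the Hbegf pair and 0.89 for the Btc pair.

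Btc had its highest mean in unstressed wounds of day 6. Probe set 1435541_at had -0.22, -0.82, -0.18 and 0.04 in stressed wounds of day 6, against 0.58, 1.30, 0.00 and 0.41 in unstressed wounds of day 6, so the groups overlapped only at their edges. The loading difference at day 6 was -0.87 (SE 0.30, unadjusted p = 0.0108) for this probe set and -0.82 (SE 0.23, unadjusted p = 0.00238) for 1421161_at. Neither passed over all probe sets in limma (adjusted p = 0.601 and 0.416), and 0.416 was the smallest adjusted p of any member at day 6. In unstressed wounds Btc fell over time: 1435541_at had -0.66, -0.64, -0.37 and 0.55 at day 14, against 0.58, 1.30, 0.00 and 0.41 at day 6, where 1 day 14 array lay within the day 6 range.

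The unstressed time differences of Btc were -0.86 (SE 0.30, limma adjusted p = 0.034) for 1435541_at and -0.73 (SE 0.23, limma adjusted p = 0.0183) for 1421161_at. Without unstressed day 6 replicate 2, whose values of 1.30 and 1.44 were the highest, they were -0.61 (adjusted p = 0.121) and -0.51 (adjusted p = 0.0646). Both calls also ended without unstressed day 6 replicate 1, and that of 1435541_at without unstressed day 14 replicate 1, 2 or 3. In stressed wounds the day 14 values of 1435541_at were -0.00, -0.49, -0.03 and -0.74, the time differences were -0.02 for 1435541_at and -0.14 for 1421161_at, and neither passed. Whether time acted differently with loading is tested by the difference of effects, which was 0.84 (limma adjusted p = 0.541) and 0.59 (limma adjusted p = 0.567). At day 14, stressed minus unstressed was -0.04 for 1435541_at and -0.23 for 1421161_at. For 1435541_at the sign differed between the classes, with 0.40 within the low-Xist and -0.47 within the high-Xist arrays. The unstressed time calls held with only the low-Xist arrays of day 14 (-1.22 for 1435541_at, adjusted p = 0.0097) and ended with only the high-Xist arrays (-0.49, adjusted p = 0.316).

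Epgn had the widest range of the ligands and passed in no comparison. Its values were 0.61, -0.18, 0.21 and -1.37 in stressed and 2.07, 0.61, -1.09 and -0.62 in unstressed wounds of day 14. At day 6 they were -0.58, 0.38, 1.13 and 0.09 in stressed and -0.73, -0.09, -1.88 and -0.48 in unstressed wounds. The loading difference was -0.42 at day 14 and 1.05 at day 6 (SE 0.61 for both), and at day 14 it was -1.12 within the low-Xist and 0.27 within the high-Xist arrays. High-Xist arrays lay below low-Xist arrays at day 14, with differences of -0.80 in stressed and -2.19 in unstressed wounds. With only the low-Xist arrays of day 14, the unstressed time difference was 2.13 (limma adjusted p = 0.0101), against 1.04 (limma adjusted p = 0.19) with all arrays and -0.06 with only the high-Xist arrays.

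Egfr, the receptor of all 5 ligands, gave different answers in its 7 probe sets. Probe set 1424932_at fell with loading at day 14, with values of -1.15, -0.71, -0.50 and -0.18 in stressed wounds, against -0.16, -0.19, 0.54 and 0.35 in unstressed wounds. The groups overlapped in 1 stressed array. The means were -0.64 ± 0.41 in stressed and 0.13 ± 0.36 in unstressed wounds (SD, n = 4 each), a difference of -0.77 (SE 0.22, limma adjusted p = 0.045), and it was -0.76 within the low-Xist and -0.78 within the high-Xist arrays (adjusted p = 0.0411 and 0.122). The call was close to the threshold and held under 10 of 25 alternatives. It ended without stressed replicate 1, 2 or 3 or unstressed replicate 3 or 4 of day 14, and also without any of replicates 1, 3 and 4 of either day 6 group, which enter through the shared spread.

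Probe set 1435888_at shared the direction of 1424932_at for loading at day 14, and the 2 had r = 0.65 over the 16 arrays. It had -0.64, -0.54, 0.33 and 0.59 in stressed wounds, against 0.29, 0.53, 0.87 and 0.78 in unstressed wounds of day 14. Stressed replicates 1 and 2 were low and replicates 3 and 4 lay within the unstressed range. The difference was -0.68 (SE 0.25, limma adjusted p = 0.104), and it was -1.0 within the low-Xist and -0.36 within the high-Xist arrays. The difference was called under 5 of 27 alternatives. With the replicate block (adjusted p = 0.0453) or the Xist class as a covariate (adjusted p = 0.0154) the same difference was called. It was also called with array weights (adjusted p = 0.0355), with only the low-Xist arrays of day 14 (adjusted p = 0.00663) and without stressed day 14 replicate 4 (-0.90, adjusted p = 0.018). The other 5 Egfr probe sets had loading differences of 0.07 to 0.37 at day 14, none past the test. A loading effect of opposite sign in these probe sets was therefore not shown.

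Over time the signs of the differences split in the same way in stressed wounds only, where 1435888_at hardly changed (-0.04). In unstressed wounds every Egfr probe set had a positive difference, from 0.02 to 0.82. Probe set 1432647_at had 0.61, 0.67, 0.54 and 0.53 in stressed wounds of day 14, against -0.10, 0.09, -0.31 and -0.41 at day 6. In unstressed wounds it had 0.32, 0.55, 0.37 and 0.31 at day 14, against -0.01, -0.18, -0.00 and 0.04 at day 6. The days did not overlap in either loading group, and the probe set rose by 0.77 (SE 0.11, limma adjusted p = 0.000142) in stressed and 0.43 (SE 0.11, limma adjusted p = 0.00855) in unstressed wounds. The stressed call held under all 25 alternatives run.

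A further pair of probe sets, 1451530_at and 1460420_a_at, rose in stressed wounds by 0.68 (limma adjusted p = 0.0128) and 0.28 (limma adjusted p = 0.043). The second also rose in unstressed wounds, by 0.30 (limma adjusted p = 0.0357). In stressed wounds 1424932_at instead fell by 0.57 on the log2 scale (limma adjusted p = 0.0442). Leaving out stressed replicate 1, 2 or 3 of day 14, stressed replicate 1, 3 or 4 of day 6, or unstressed replicate 1 or 4 of day 6 ended that call, as did keeping only the high-Xist arrays of day 14 (-0.27, adjusted p = 0.314). The 1460420_a_at calls held under 10 of 24 alternatives in stressed and 15 of 24 in unstressed wounds. Without stressed replicate 1, 2 or 4 or unstressed replicate 2 of day 14, or stressed replicate 2, 3 or 4 or unstressed replicate 1 or 3 of day 6, its stressed call ended, and without unstressed replicate 2, 3 or 4 of day 14 or unstressed replicate 3 or 4 of day 6 its unstressed call ended. Probe set 1435888_at had a stressed time difference of -0.04 and rose by 0.82 (SE 0.25, limma adjusted p = 0.0159) in unstressed wounds, where its arrays did not overlap. Its effects of time in stressed and unstressed wounds differed by -0.85 (limma adjusted p = 0.43). In unstressed wounds 1451530_at gave 0.49 (limma adjusted p = 0.0633), which was called without stressed day 6 replicate 2 (adjusted p = 0.039) or unstressed day 6 replicate 2 (adjusted p = 0.0255). Probe sets 1454313_at and 1457563_at passed in no comparison, though 1454313_at was called in unstressed wounds without unstressed day 6 replicate 1 (0.39, adjusted p = 0.0346). Over the 16 arrays 1424932_at had r = -0.50 with 1432647_at, while 1451530_at and 1460420_a_at had r = 0.80. Which transcripts each probe set matches is not analysed here.

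**Figure D3:**
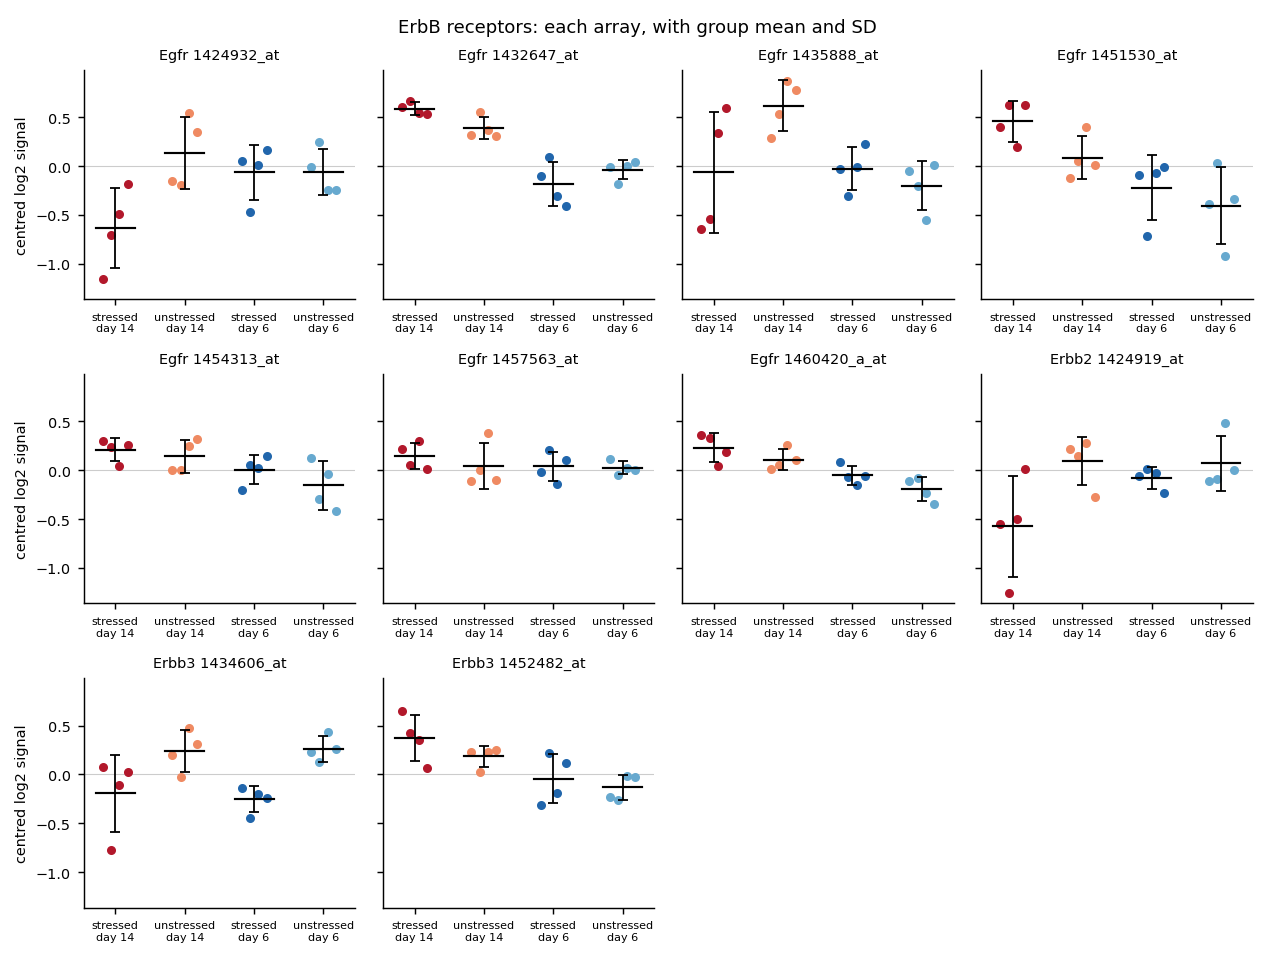
Centred log2 signal (y axis) of the 10 receptor probe sets in each array (points), by group (x axis), with the group mean (horizontal line) and SD (bars), n = 4 a group; 0 is no absolute level. Egfr 1424932_at is lowest in stressed wounds of day 14, Egfr 1432647_at is higher at day 14 than at day 6, and the 4 stressed points of Erbb3 1434606_at at day 6 lie below the 4 unstressed ones.

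Erbb2 had 1 probe set, 1424919_at, with values of -0.55, -1.26, -0.50 and 0.01 in stressed wounds of day 14, against 0.22, 0.15, 0.28 and -0.27 in unstressed wounds. Stressed replicates 1, 2 and 3 lay below all unstressed arrays and replicate 4 lay among them. The difference of -0.67 (SE 0.22, 95% interval -1.13 to -0.21) did not pass over all probe sets (limma adjusted p = 0.0717). It was -1.09 within the low-Xist and -0.25 within the high-Xist arrays, and it was called without stressed replicate 4 (-0.87, adjusted p = 0.0113) or unstressed replicate 4 (-0.79, adjusted p = 0.049) of day 14. At day 6 the 8 values lay at -0.24 to 0.48, and the loading difference was -0.15. The time difference was -0.50 (limma adjusted p = 0.0725) in stressed and 0.03 in unstressed wounds. It was called in stressed wounds without stressed day 14 replicate 4 (-0.69, adjusted p = 0.0115).

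Erbb3, a neuregulin receptor, had lower means in stressed wounds at both days in probe set 1434606_at, and neither difference passed the test. At day 14 the values were 0.08, -0.77, -0.11 and 0.03 in stressed wounds, against 0.20, -0.03, 0.48 and 0.32 in unstressed wounds. At day 6 they were -0.14, -0.45, -0.20 and -0.24 in stressed wounds, against 0.23, 0.12, 0.43 and 0.26 in unstressed wounds. The groups overlapped at day 14 and did not overlap at day 6. The differences were -0.44 (SE 0.17, limma adjusted p = 0.127) at day 14 and -0.52 (SE 0.17, unadjusted p = 0.00768, limma adjusted p = 0.549) at day 6, and they differed from each other by 0.08 (95% interval -0.43 to 0.59).

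After quantile normalization the day 6 difference of 1434606_at was -0.82 and passed (adjusted p = 0.0112). With that setting 496 of all 34945 probe sets passed at day 6, against 9 without it. The second Erbb3 probe set, 1452482_at, had the opposite sign, 0.19 at day 14 and 0.09 at day 6, and r = -0.18 with the first over the 16 arrays. It rose over time in stressed wounds by 0.41 (SE 0.14, limma adjusted p = 0.0267), a call lost without replicate 1 or 2 of stressed day 14 or replicate 1 or 3 of stressed day 6, and it gave 0.32 (limma adjusted p = 0.085) in unstressed wounds. Beside 1434606_at, the mean of 11 general epithelial markers such as Epcam and Cdh1 lay at -0.56 to 0.04 in stressed and -0.23 to 0.54 in unstressed wounds of day 14. At day 6 it lay at -0.68 to -0.11 in stressed and -0.05 to 0.24 in unstressed wounds, without overlap. Over the 16 arrays 1434606_at had r = 0.83 with this mean and r = -0.74 with that of 10 fibroblast markers, and their part in the Erbb3 values was not tested.

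**Figure D4:**
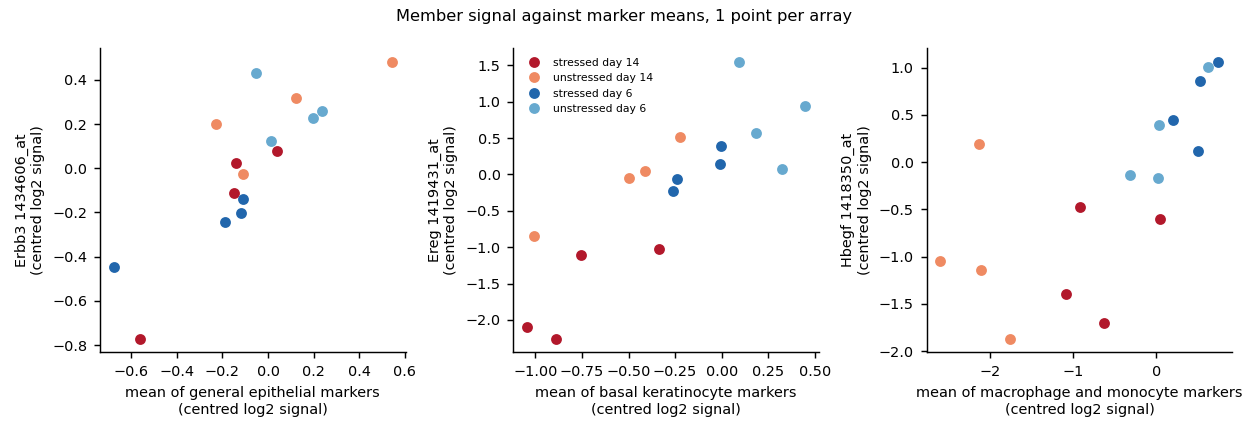
Centred log2 signal of 3 member probe sets (y axes) against the mean centred log2 signal of a marker list (x axes), 1 point per array, coloured by group. Erbb3 1434606_at runs with the general epithelial mean (r = 0.83) and Ereg with the basal keratinocyte mean (r = 0.83); Hbegf 1418350_at has its highest values, up to 1.06, in day 6 arrays, where the macrophage mean lies at -0.31 to 0.75.

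Other cell types also differed between the groups compared. Between stressed and unstressed wounds of day 14, 9 of 11 macrophage and 4 of 10 fibroblast markers were higher, and 8 of 12 skeletal muscle, 7 of 8 adipocyte and 2 of 12 hair follicle and sebaceous gland markers were lower. Of all genes, 3.83% were higher and 4.26% lower in stressed wounds of day 14. The adipocyte mean lay at -2.42 to 0.32 in stressed and 0.68 to 1.82 in unstressed wounds of day 14, and the muscle mean at -4.11 to -0.43 in stressed and -1.32 to 0.92 in unstressed wounds. At day 6, 0 of the 53 markers of these 5 lists passed in limma. Of the 7 with an unadjusted p under 0.05, 6 were fibroblast markers. All 10 fibroblast markers had a loading difference above 0 at day 6, with a median of 0.65. The fibroblast mean lay at 0.31 to 0.51 in stressed and -0.51 to -0.10 in unstressed wounds of day 6, without overlap. Of 9 neutrophil markers, 3 were higher in stressed wounds of day 14, with all 9 above 0 and a median of 0.91, and their mean lay at -0.25 to 0.84 in stressed and -1.32 to -0.78 in unstressed wounds. Over the 16 arrays Egfr 1424932_at had r = 0.78 and Erbb2 r = 0.68 with the adipocyte mean, and the part of these tissues in the loading differences was not tested.

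The rest of the pathway was followed in 7 lists with 61 measured genes, each read from its most variable probe set (by interquartile range). At day 14, 3 of the 61 rose and 4 fell in stressed against unstressed wounds, where 3.83% of all genes rose and 4.26% fell. Shc1, an adaptor of activated ErbB receptors, rose by 1.21 (SE 0.25, limma adjusted p = 0.0108), Cbl, a ubiquitin ligase that marks Egfr for breakdown, by 0.89 (SE 0.21, limma adjusted p = 0.0181), and Adam17, the main sheddase of Ereg, Hbegf and Tgfa, by 0.64 (SE 0.13, limma adjusted p = 0.00993). Dusp4, an ERK phosphatase induced by ERK itself, fell by 1.34 on the log2 scale (SE 0.37, limma adjusted p = 0.0403). Sos2, a RAS activator, fell by 0.85, Socs5, which promotes Egfr turnover, fell by 0.63, and Lrig2, of a family of receptor-binding membrane proteins, fell by 0.47. At day 6, 0 of 61 passed in limma, and 2 had an unadjusted p under 0.05.

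The 16 ERK feedback and early target genes had a median loading difference of -0.32 at day 14, with 11 of 16 below 0 and only Dusp4 past the test, and of 0.29 at day 6, with 13 of 16 above 0, 0 past the test in limma and 1 with an unadjusted p under 0.05. The median over all genes was 0.01 at both days. For Egr1, an immediate early transcription factor, the loading difference was -1.69 (limma adjusted p = 0.0848) at day 14 and 0.79 (limma adjusted p = 0.987) at day 6. The difference between the loading effects was below 0 for 14 of the 16, with a median of -0.62, and passed for 0 in limma, with 4 under an unadjusted p of 0.05.

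The same list was followed over time. In stressed wounds 1 of 16 rose and 7 fell at day 14, where 23.3% of all genes rose and 33.3% fell. Among these, Fos fell by 2.81 (limma adjusted p = 0.0165), Egr1 fell by 2.14 (limma adjusted p = 0.00722), Junb fell by 1.58 (limma adjusted p = 0.00393) and Etv5 fell by 1.21 (limma adjusted p = 0.00711), all on the log2 scale. In unstressed wounds 4 of 16 rose and 1 fell, where 21.9% of all genes rose and 30.5% fell. Spred2, Spry2 and Dusp6, which restrain RAS and ERK signalling, rose by 1.23, 1.15 and 1.06, and Spred1, of the same kind, fell by 0.54. The median of the list was -0.50 in stressed and 0.08 in unstressed wounds, where that of all genes was -0.14 and -0.09. A difference in the effect of time between the loading groups is the same contrast as that between the loading effects, and passed for 0 of the 16.

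Of 6 sheddases and their partners, 2 rose and 2 fell over time in stressed wounds and 2 rose and 1 fell in unstressed wounds. Over all genes 23.3% rose and 33.3% fell in stressed and 21.9% rose and 30.5% fell in unstressed wounds. Timp3, an inhibitor of Adam17, rose by 1.75 (SE 0.25) in stressed and 2.06 (SE 0.25) in unstressed wounds. Adam10, the sheddase of Btc, rose by 1.82 in stressed and 0.83 in unstressed wounds, and Adam17 fell by 0.65 in stressed and fell by 1.34 in unstressed wounds. Rhbdf1, which assists Adam17, fell by 0.53 in stressed wounds. These 7 differences passed in limma, with adjusted p-values of 6.09e-06 to 0.036. Among the other ligands Nrg2, a neuregulin, rose by 1.51 in stressed and 1.53 in unstressed wounds. Egf gave 0.25 in stressed wounds (limma adjusted p = 0.441) and rose by 0.71 in unstressed wounds (limma adjusted p = 0.0377). Erbb4 passed in no comparison, with differences of 0.04 to 0.09.

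Receptor inhibitors and turnover genes rose in 2 of 12 and fell in 6 of 12 in stressed wounds over time, and rose in 2 and fell in 4 in unstressed wounds. In these lists, as in the adaptor and kinase lists, the counts are to be read against the 23.3% of all genes that rose and 33.3% that fell in stressed wounds, and the 21.9% that rose and 30.5% that fell in unstressed wounds. Nothing particular to a list was tested. In stressed wounds Errfi1, a direct inhibitor of Egfr, fell by 1.42 and Socs5 fell by 1.12, while Ptprk, a phosphatase, and Cbl rose by 1.16 and 1.12. In unstressed wounds Cblc, a Cbl relative, fell by 1.01, Lrig3 fell by 0.75, and the phosphatases Ptpn1 and Ptprk rose by 0.68 and 0.67. Of 11 adaptor and RAS genes, 4 rose and 4 fell in stressed wounds, and 1 rose and 5 fell in unstressed wounds. Nras fell by 1.63 in stressed and fell by 1.74 in unstressed wounds, and Gab2, an adaptor, fell by 1.49 in stressed and fell by 1.53 in unstressed wounds. Of 10 kinase cascade and PI3K genes, 1 rose and 4 fell in stressed wounds and 1 rose and 5 fell in unstressed wounds, among them the transcription factor Stat3, which fell by 1.37 in stressed and fell by 0.96 in unstressed wounds, and the kinase Araf, which fell by 1.30 in stressed and fell by 0.84 in unstressed wounds.

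**Figure D5:**
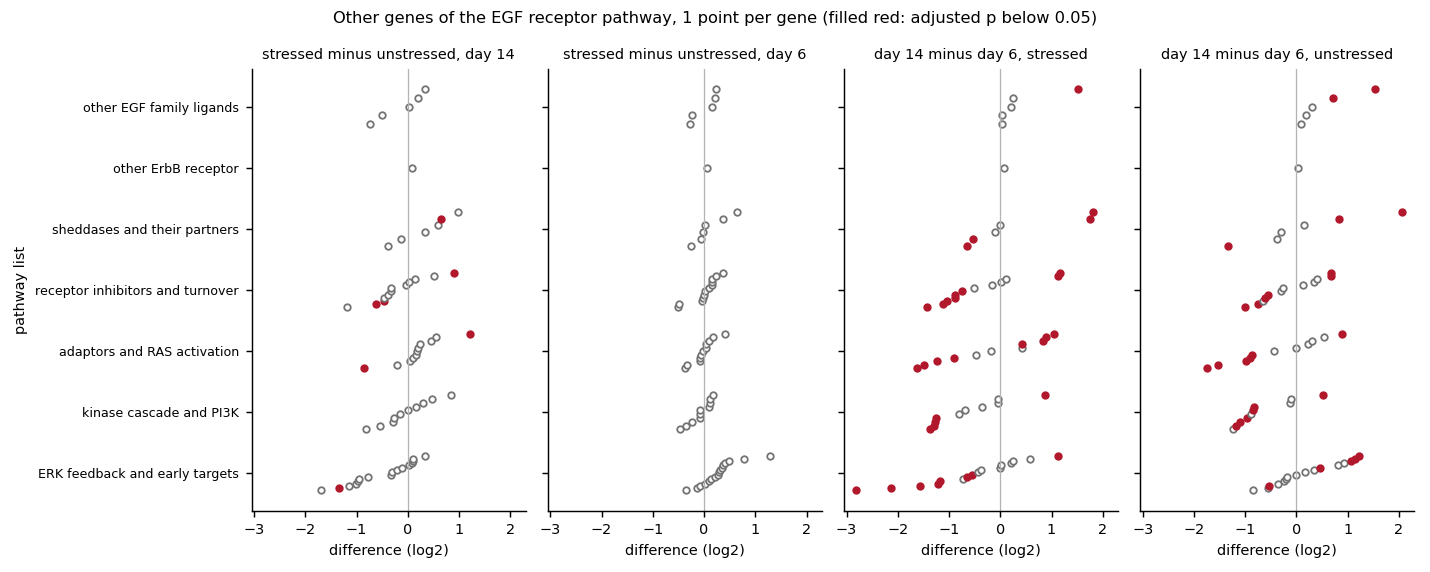
Difference on the log2 scale (x axis) of the 61 other pathway genes, 1 point per gene in 7 lists (y axis), in 4 comparisons; filled red points passed an adjusted p of 0.05. Loading at day 14 has 7 filled points and loading at day 6 has none, and the early target genes Fos (-2.81) and Egr1 (-2.14) lie lowest over time in stressed wounds.

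The genes whose signal ran most closely with each member over the 16 arrays were found by Pearson's r among 18193 genes. For Ereg these were Lce1m (r = 0.92), Scamp1 (0.91) and Smpd3 (0.90), the first encoding a late cornified envelope protein. For Hbegf 1418350_at they were Trpt1 (0.92), Itgae (0.91) and Gcnt2 (0.91), and for Tgfa 1421942_s_at Lmx1b (0.98), Pkd2l1 (0.98) and Slc25a39 (0.97). For Btc 1435541_at they were Plet1 (0.86), Adal (0.85) and Mkrn3 (0.85), and for Epgn, with the loosest matches, Cyp4b1 (0.77), Kpnb1 (0.74) and Cuzd1 (0.72). For Egfr 1435888_at they were Mgst3 (0.95), Fzd5 (0.93) and Prr14l (0.92), and for Erbb2 Prpsap1 (0.92), Pom121 (0.91) and Plxnb1 (0.91). For Erbb3 1434606_at they were Esrp1, an epithelial splicing factor (0.92), Sowahc (0.85) and Fgfr3 (0.85). The points of these correlations share day, loading and Xist class.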

How the data were processed

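Total RNA of 16 wound samples, 4 in each of 4 groups, was measured on Affymetrix arrays. Per the series design text the intensity files were processed with GeneSpring GX 11.0; how background was corrected and arrays were normalized is not given in the sources used here. As deposited, values are logs centred per probe set, and they were read as log2. The largest range of a probe set, 10.08, exceeds the 4.82 possible for log10 of a 16-bit scan, while natural logs remain possible. Of 45101 probe sets, 64 of them controls, 34945 had 1 gene symbol in the platform annotation. Where 1 value stands for a gene, it is that of the most variable probe set by interquartile range (18193 genes).

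Every probe set with 1 symbol was fitted in R 4.3.3 with limma 3.58.1 (lmFit, eBayes) on the means of the 4 groups, and 5 contrasts were tested two-sided with Benjamini-Hochberg adjustment. The fit was tested on simulated data. Tables and figures were made in Python 3.11.15 with matplotlib 3.10.9, numpy 2.4.6, pandas 2.3.3 and scipy 1.17.1. The members, gene lists and markers were chosen with earlier results of these data known, and the promoter motifs after the members' values were seen. The text names all member probe sets, at most 4 called genes of each list and comparison, and the 3 genes most like each member. The early target gene Egr1 at both days was also named for its loading values, after these were seen. Areg and some other genes of the lists are not reported here.

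Whether arrays with the same replicate number deviate together from their groups was checked. For the 4 day 14 pairs of stressed and unstressed arrays with the same number, the correlations of deviations were 0.14 to 0.26. For day 14 arrays with different numbers but the same Xist class they were 0.07 to 0.23. The arrays of a pair share their class, so pairing by number cannot be told apart from the class. The numbers were used as a block in an alternative only. Same-number correlations were -0.42 to -0.00 at day 6. Between the days they were -0.16 to 0.09 in stressed and -0.09 to 0.02 in unstressed wounds, so no pairs were taken there. No replicates held identical values (SD of differences at least 0.237). Alternatives were quantile normalization, array weights, only the arrays of a comparison, other probe set filters, the replicate block, the Xist class and leaving out each array. Centred values allowed no background correction or filter on dim probes.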

Additional observations from a re-analysis of the deposited data

Results flagged for a closer look

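In 76 sets of 4 values (19 probe sets in 4 groups), 3 held an array so far from the others, relative to the range of the set, that it passed Dixon's 95% limit, which chance passes in about 1 in 20 sets. Hbegf 1418349_at in unstressed day 6 replicate 2 was 1.22, with the other 3 arrays at -0.14 to 0.03. Egfr 1451530_at in stressed day 6 replicate 2 was -0.72, with the others at -0.09 to -0.01. Erbb3 1452482_at in unstressed day 14 replicate 2 was 0.028, with the others at 0.23 to 0.26. Without unstressed day 6 replicate 2, the unstressed time comparison called 5 member probe sets, 5 higher and 0 lower, against 8 with all arrays.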

How the results depend on the processing

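For loading at day 14, 2 member probe sets passed; the count was 0 after quantile normalization and with only the arrays of the comparison, 4 with array weights, with the replicate block, with the Xist class as a covariate and with only the low-Xist arrays, and 1 with 1 probe set per gene (8 member probe sets tested), all probe sets except controls, only the more variable probe sets (9 tested), and, an alternative chosen after seeing the data, only the day 14 arrays with the Xist class as a covariate. It was also 1 with only the high-Xist arrays, where Tgfa 1421943_at was called (-1.35, adjusted p = 0.034) and neither Ereg (-1.20, adjusted p = 0.23) nor Egfr 1424932_at (-0.78, adjusted p = 0.122) passed. Leaving out 1 array gave 0 to 4, with 0 without stressed day 14 replicate 2 and 4 without stressed day 14 replicate 4. All calls under these settings were lower in stressed wounds. The number lower over all 34945 probe sets moved with the setting. It was 1411 in the main fit, 176 after quantile normalization, 20 with only the arrays of the comparison and 2905 with array weights. With the replicate block it was 1219 and with the Xist class as a covariate 2314. With only the low-Xist arrays it was 3833, and with only the high-Xist arrays 318. The member counts are to be read against these. For loading at day 6 the count of 0 became 1 after quantile normalization (Erbb3), where 496 of all 34945 probe sets passed, against 9 in the main fit. For the difference between days it became 1 with only the low-Xist arrays (Egfr 1435888_at, -1.17, adjusted p = 0.0181). There 2749 of all probe sets passed, against 3 in the main fit. Leaving out 1 array gave 0 members for both. Over time in stressed wounds the 9 calls became 3 with 1 probe set per gene, 5 with the more variable probe sets, and 6 to 9 when 1 array was left out. In unstressed wounds the 8 became 5 with only the arrays of the comparison, with 1 probe set per gene and with the Xist class as a covariate, and 4 to 9 when 1 array was left out (4 without unstressed day 14 replicate 2, and 5 without its replicate 3 or 4 or without unstressed day 6 replicate 2). The replicate block gave 6 time calls in each loading group, though the numbers pair no arrays there. Of 2365 values of single members, 2170 counted as unchanged. These were called in both fits, or uncalled in both and moved by no more than their SE. Size was compared only for values without a call. A further 94 lost a call, 38 gained one and 63 moved by more than their SE without a call. Of the called values, 0 changed sign. The spread of 4 arrays a group and the centring, which hides background, limit what can be called.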
